A study of Mus musculus with 4 samples.

Results

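The MHC class I presentation genes were 10 genes chosen by name: *H2-K1*, *H2-D1*, *H2-L*, *H2-Q7*, *B2m*, *Tap1*, *Tap2*, *Tapbp*, *Psmb8* and *Psmb9*. All 10 were found among the 15298 genes with values. RNA was sequenced from peritoneal macrophages of female BALB/c mice that were 6 weeks old, and the cells had been sorted as CD11b+ F4/80+ Ly6G-. There were 4 groups with 1 library each. MCS mice received microcurrent stimulation (MCS) lasting 15 min through pads on the abdomen and back. It was given at ZT2, Zeitgeber Time (ZT) being hours from lights on. Control mice had the pads and the isoflurane anesthesia without current. Cells were taken at ZT2, right after the end of MCS, or at ZT14, 12 h later. The 4 libraries are called control ZT2, control ZT14, MCS ZT2 and MCS ZT14, and values are given in that order. The sources used here do not say how many mice stand behind a library, and no value has a replicate, so no difference between groups could be tested against spread between mice.

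MHC class I molecules display peptides from inside the cell to CD8+ T cells. Proteins are cut by the proteasome, which can carry the interferon-inducible subunits *Psmb8* and *Psmb9*, and the peptides are pumped into the endoplasmic reticulum by the transporter made of *Tap1* and *Tap2*. There, tapasin (*Tapbp*) helps load them onto a heavy chain paired with beta-2 microglobulin (*B2m*). Macrophages present peptides in this way from their own proteins and, by cross-presentation, from material they have engulfed.

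The heavy chains are encoded by a family of closely related genes, and this bears on every heavy chain value. The classical molecules *H2-K1*, *H2-D1* and *H2-L* present peptides to T cells, and *H2-Q7* encodes a nonclassical heavy chain of the Qa-2 group. In mm10, the build named in the submitters' processing notes, *H2-K1* is at chr17:33996017-34000347, *H2-D1* at chr17:35262730-35267499 and *H2-Q7* at chr17:35439155-35443773. Coding sequences were 91.4% identical between *H2-K1* and *H2-D1*, 88.3% between *H2-K1* and *H2-Q7*, 89.95% between *H2-D1* and *H2-Q7*, and 95.5% between *H2-Q7* and its neighbor *H2-Q6*. Among 13 heavy chain genes with a coding sequence, the 78 pairs ranged from 62.7% to 96.3%. Reads were sequenced in pairs, each read being 150 bases long. Of all 100-base stretches of its transcript, none of those of *H2-K1* occurred in a transcript of another gene, against 4.64% for *H2-D1* and 16.4% for *H2-Q7*. At 50 bases these shares were 8.79%, 14.3% and 34.9%, and at the length of a single read, 150 bases, 0%, 1.79% and 9.68%. Sharing over both reads of a pair was not examined. *H2-L* had no transcript in the set searched, so stretches shared with it were not counted. *H2-Q8* and *H2-Q9*, of the same Qa-2 group as *H2-Q7*, were not among the 13 genes compared. Among the other members with a transcript, *Tapbp* shared 0.107% of its 100-base stretches and *B2m*, *Tap1*, *Tap2*, *Psmb8* and *Psmb9* shared none. BALB/c mice carry another haplotype of these loci than the C57BL/6J reference, and how the reads of BALB/c alleles were divided among the heavy chain rows was not tested.

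**Figure D1:**
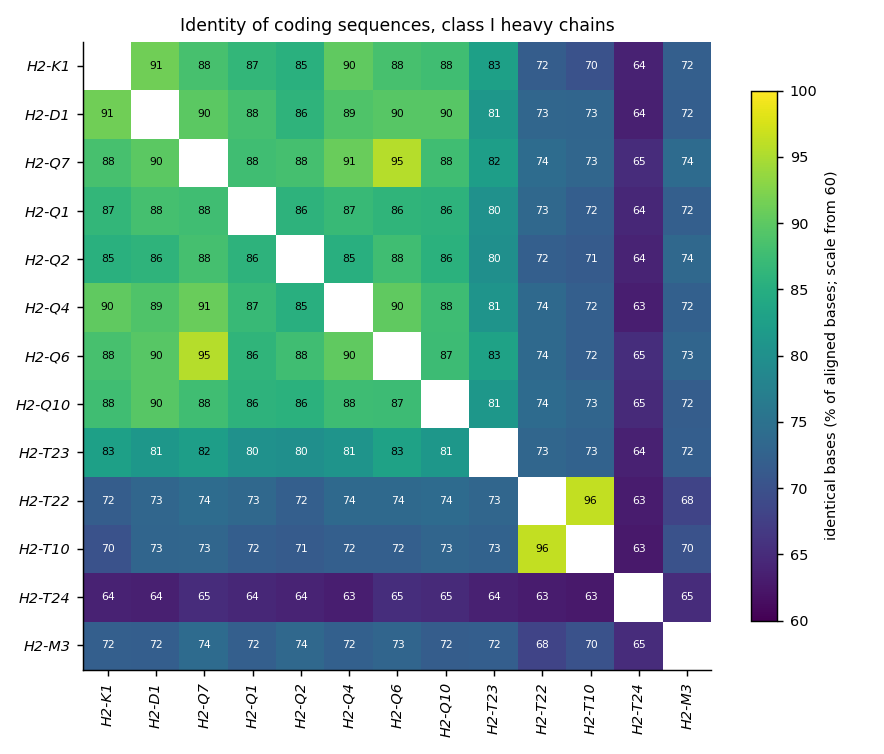
Percent of identical bases in the aligned coding sequences of 13 class I heavy chain genes, each square being 1 pair. The pair H2-Q7 and H2-Q6 stands at 95.5% and the pair H2-K1 and H2-D1 at 91.4%, whereas the lowest of all pairs is at 62.7%.

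The other members lie close together as well, except for *B2m* on another chromosome (chr2:122147686-122153083). *Psmb9* (chr17:34181987-34187764), *Tap1* (chr17:34187553-34197225), *Psmb8* (chr17:34197721-34201454) and *Tap2* (chr17:34203527-34216321) filled 34335 bases between them. *Psmb9* and *Tap1* are read in opposite directions from RefSeq start sites 225 bases apart, whereas their spans given here, from GENCODE M21, overlap. *Tapbp* lies at chr17:33915899-33929292. Promoter sequences from RefSeq (GRCm38.p6) were matched for 8 of the 10 members. Those of *H2-K1*, *H2-D1* and *H2-Q7* are shown because the 3 heavy chains share the same elements in the reference sequence. Their values, measured in BALB/c mice, differed. That of *B2m* is shown because its product pairs with every heavy chain, and that of *Tap1* because it is shared with *Psmb9*. All letters are those of the reference strain. BALB/c mice carry another haplotype, and whether their promoters hold the same elements was not examined. Capitals mark, from left to right, a kappaB-like motif, the core of an interferon regulatory factor site and the core of the cyclic AMP response element (TGACG), each searched on both strands. In *Tap1* they mark TGACG only, and in *B2m* the kappaB-like motif and TGACG. None of the 3 overlapped another in these stretches. Each line runs 5′ to 3′ on the strand of the gene and ends just before its RefSeq start site. The RefSeq start site of *H2-D1* lies inside the GENCODE span given for this gene above.
H2-K1 (chr17:34000348-34000527, minus strand): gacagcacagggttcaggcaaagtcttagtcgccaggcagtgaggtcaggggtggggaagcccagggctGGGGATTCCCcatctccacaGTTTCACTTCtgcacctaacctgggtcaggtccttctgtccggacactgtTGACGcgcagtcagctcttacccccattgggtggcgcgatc
H2-D1 (chr17:35262914-35263093, plus strand): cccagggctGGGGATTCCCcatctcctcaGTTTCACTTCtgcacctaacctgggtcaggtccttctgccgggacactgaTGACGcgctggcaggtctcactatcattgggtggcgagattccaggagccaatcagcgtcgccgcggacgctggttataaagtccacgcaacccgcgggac
H2-Q7 (chr17:35438975-35439154, plus strand): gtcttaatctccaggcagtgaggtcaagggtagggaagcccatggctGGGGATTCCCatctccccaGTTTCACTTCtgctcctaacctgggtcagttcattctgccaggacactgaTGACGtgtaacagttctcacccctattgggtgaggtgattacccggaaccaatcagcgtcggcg
B2m (chr2:122147507-122147686, plus strand): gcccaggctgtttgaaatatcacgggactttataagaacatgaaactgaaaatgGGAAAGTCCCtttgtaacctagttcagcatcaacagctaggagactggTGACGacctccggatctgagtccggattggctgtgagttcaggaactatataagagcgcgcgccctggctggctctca
Tap1 (chr17:34187306-34187555, plus strand): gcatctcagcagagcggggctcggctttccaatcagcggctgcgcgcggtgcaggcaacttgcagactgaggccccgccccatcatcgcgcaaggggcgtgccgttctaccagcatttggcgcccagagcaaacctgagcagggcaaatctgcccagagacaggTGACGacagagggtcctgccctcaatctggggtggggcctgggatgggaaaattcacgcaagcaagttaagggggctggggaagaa

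The shared elements stood in the same order in the 3 heavy chain promoters of the reference sequence. Over the whole windows of the 8 members, from 250 bases before to 50 after the start, the kappaB-like motif was present in 4 (*H2-K1*, *H2-D1*, *H2-Q7* and *B2m*), against 4.79% of all 32851 promoters. The interferon regulatory factor core was present in 3 (*H2-K1*, *H2-D1* and *H2-Q7*), against 1.73% of all promoters. TGACG was present in 6, against 20.8%, and CCAAT in 7, against 37.4%. The interferon regulatory factor core and CCAAT were searched for only after the sequences had been read. A match of the ISRE-like motif, the element bound by interferon-activated factors, was present in *B2m* alone, against 3.44% of all promoters, and one of the GAS-like motif TTCNNNGAA in *Psmb8* alone, against 8.3%. The circadian E-box CACGTG and the D-box TTATGTAA, which are bound by clock factors and by PAR-domain factors, were in none of the 8 windows, against 7.15% and 0.938% of all promoters. A match describes the letters of a window in the reference sequence and does not show binding. The promoters of BALB/c mice were not searched.

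Levels of the members spanned a wide range. Per kilobase of transcript and averaged over the 4 libraries, *H2-D1* stood highest at 1171 CPM per kb (CPM being counts scaled to a common library size), followed by *B2m* at 994 and *H2-K1* at 456. *Tapbp* followed at 169 and *Psmb8* at 42.5. *Tap1* stood at 19.1, *Psmb9* at 17.6 and *Tap2* at 15.4, and their ranges over the libraries overlapped. *Tap2* was lowest of these 3 neighbors in every library, in MCS ZT14 by little (19.0 against 19.7 for *Tap1*). *Psmb9* stood above *Tap1* in MCS ZT14 and below it elsewhere, so this pair could not be put in order. The ranges of *H2-D1* (908 to 1668) and *B2m* (933 to 1101) overlapped too. *H2-Q7* stood lowest at 2.04, and *H2-L* had no transcript length here.

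The libraries held between 8365590 and 9953243 reads over the listed genes, and 1 read was worth 0.102 to 0.116 CPM. Intervals below are 95% exact intervals on reads and cover counting error only. Ratios are log2 ratios of CPM after adding 0.1 CPM, which understates the difference for low genes.

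**Figure D2:**
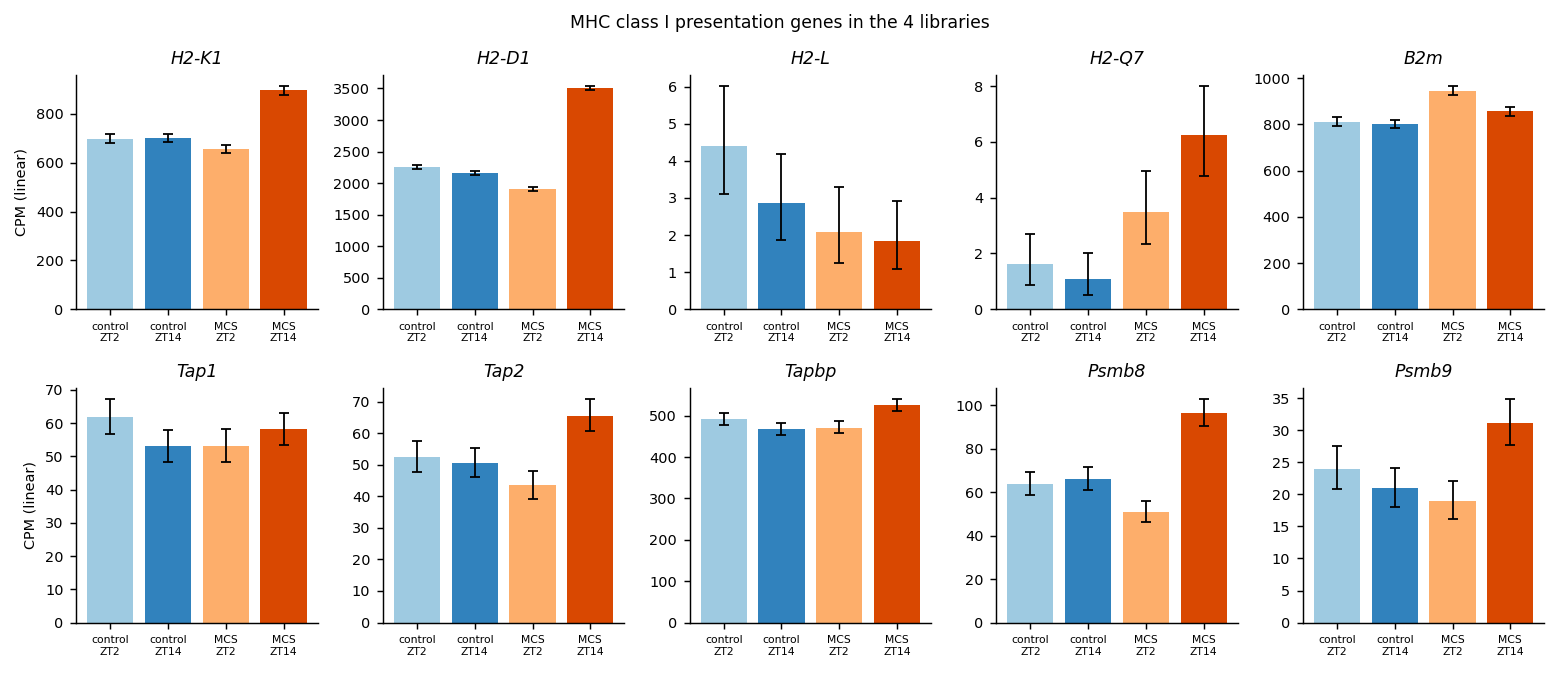
CPM of the 10 members in the 4 libraries, with a bar for each library from 0 on a linear axis and 95% exact Poisson intervals on reads (counting error only). H2-D1 runs from 1909 to 3507 CPM and is highest in MCS ZT14, as are H2-K1, H2-Q7, Tap2, Tapbp, Psmb8 and Psmb9.

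Among the heavy chains, *H2-D1* was the most abundant, with 2262, 2165, 1909 and 3507 CPM. MCS ZT14 stood above the other 3 libraries and MCS ZT2 below them. The log2 ratio of MCS to control was -0.24 at ZT2 (interval -0.27 to -0.21) and 0.70 at ZT14 (0.67 to 0.72), a 1.62-fold higher level at ZT14. *H2-K1* had the same highest and lowest library with a smaller range, at 698, 701, 656 and 896 CPM. Its ratio was -0.09 at ZT2 (-0.14 to -0.04) and 0.36 at ZT14 (0.31 to 0.40). The ratio at ZT14 was 0.34 higher for *H2-D1* than for *H2-K1*, on the log2 scale. *H2-D1* thus made up 62.8% of the summed CPM of 19 class I heavy chain genes in MCS ZT14, against 57.1% to 58.6% in the other libraries.

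*H2-Q7* had the highest ratio of the members, but on few reads. It was counted with 14, 10, 30 and 61 reads, which gave 1.62, 1.10, 3.48 and 6.24 CPM. Both MCS libraries stood above both controls. The ratio of MCS to control was 1.06 at ZT2 (0.15 to 2.14) and 2.40 at ZT14 (1.53 to 3.64). Its neighbors *H2-Q8* and *H2-Q9*, which belong to the same Qa-2 group, had far more reads and another pattern. *H2-Q8* stood at 129, 114, 104 and 186 CPM, and *H2-Q9* at 102, 94.9, 80.2 and 136 CPM. For the 3 genes summed, the ratio was -0.32 at ZT2 (-0.41 to -0.22) and 0.64 at ZT14 (0.56 to 0.72). The sum therefore was below control at ZT2, where *H2-Q7* alone was above it. How reads were split among these genes was not tested, and the value of *H2-Q7* alone is uncertain for that reason.

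*H2-L* was counted with 38, 26, 18 and 18 reads, or 4.39, 2.86, 2.09 and 1.84 CPM. Both MCS libraries lay below both controls, opposite to *H2-Q7*. The ratio was -1.04 at ZT2 (-1.97 to -0.23) and -0.61 at ZT14 (-1.59 to 0.29), and the interval at ZT14 included 0. *H2-L* is closely related to *H2-D1* and had between 0.0525% and 0.194% as many reads. Added to *H2-D1*, it gave ratios of -0.25 and 0.69. How reads were split between *H2-L* and *H2-D1* was not tested, and the value and direction of *H2-L* alone are uncertain for that reason.

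The light chain *B2m* varied little, with 812, 803, 947 and 857 CPM. It was highest in MCS ZT2, the library in which *H2-D1* and *H2-K1* were lowest. The ratio of MCS to control was 0.22 at ZT2 (0.18 to 0.27) and 0.09 at ZT14 (0.05 to 0.14). The small difference at ZT14 changed its sign, to -0.12, when ratios were centered on genes of like transcript length. Summed over the 19 heavy chain genes, the CPM was 4.81, 4.604, 3.53 and 6.51 times that of *B2m*. This ratio of heavy to light chain RNA was thus lowest right after MCS and highest 12 h later.

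The transporter genes differed from each other. *Tap1* had 61.8, 53.1, 53.0 and 58.2 CPM, with the highest value in control ZT2. Its ratio was -0.22 at ZT2 (-0.40 to -0.04) and 0.13 at ZT14 (-0.04 to 0.31), where the interval included 0. *Tap2* had 52.5, 50.5, 43.5 and 65.5 CPM, with MCS ZT2 lowest and MCS ZT14 highest. Its ratio was -0.27 at ZT2 (-0.47 to -0.07) and 0.37 at ZT14 (0.20 to 0.55). *Tap2* stood at 0.821 to 0.952 times *Tap1* in CPM in the other 3 libraries and at 1.13 times in MCS ZT14.

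Tapasin, which bridges the transporter and the heavy chain, stood at 493, 468, 472 and 526 CPM. Its ratios were small, -0.06 at ZT2 (-0.126 to -0.000856) and 0.17 at ZT14 (0.11 to 0.23). Its relative *Tapbpl*, which edits peptides outside the loading complex, stood at 33.5, 39.8, 38.6 and 38.9 CPM. The ratios of *Tapbpl* were 0.21 and -0.03, and both intervals included 0.

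The immunoproteasome subunits *Psmb8* and *Psmb9* replace *Psmb5* and *Psmb6* in the catalytic core. *Psmb8* had 63.6, 66.0, 50.9 and 96.4 CPM, and *Psmb9* had 24.02, 20.98, 18.9 and 31.2 CPM. For both genes MCS ZT2 was the lowest library and MCS ZT14 the highest. *Psmb8* had a ratio of -0.32 at ZT2 (-0.51 to -0.14) and 0.55 at ZT14 (0.40 to 0.70). *Psmb9* had a ratio of -0.34 at ZT2 (-0.65 to -0.04) and 0.57 at ZT14 (0.31 to 0.84). Their constitutive counterparts had similar ratios at ZT14. *Psmb5* stood at 26.1, 29.1, 23.2 and 43.2 CPM, a ratio of 0.57 at ZT14 (0.34 to 0.79), and *Psmb6* at 35.0, 30.9, 29.1 and 41.1 CPM, a ratio of 0.41 (0.19 to 0.64). The CPM of *Psmb8* was 2.44, 2.27, 2.20 and 2.23 times that of *Psmb5*, and that of *Psmb9* was 0.686, 0.680, 0.649 and 0.759 times that of *Psmb6*. *Psmb8* and *Psmb5* were thus both higher in MCS ZT14, and their proportion there lay within the range of the other libraries, whereas the proportion of *Psmb9* to *Psmb6* was highest in MCS ZT14. Across the promoter they share, *Psmb9* and *Tap1* had ratios of 0.57 and 0.13 at ZT14, a difference of 0.44 on the log2 scale.

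**Figure D3:**
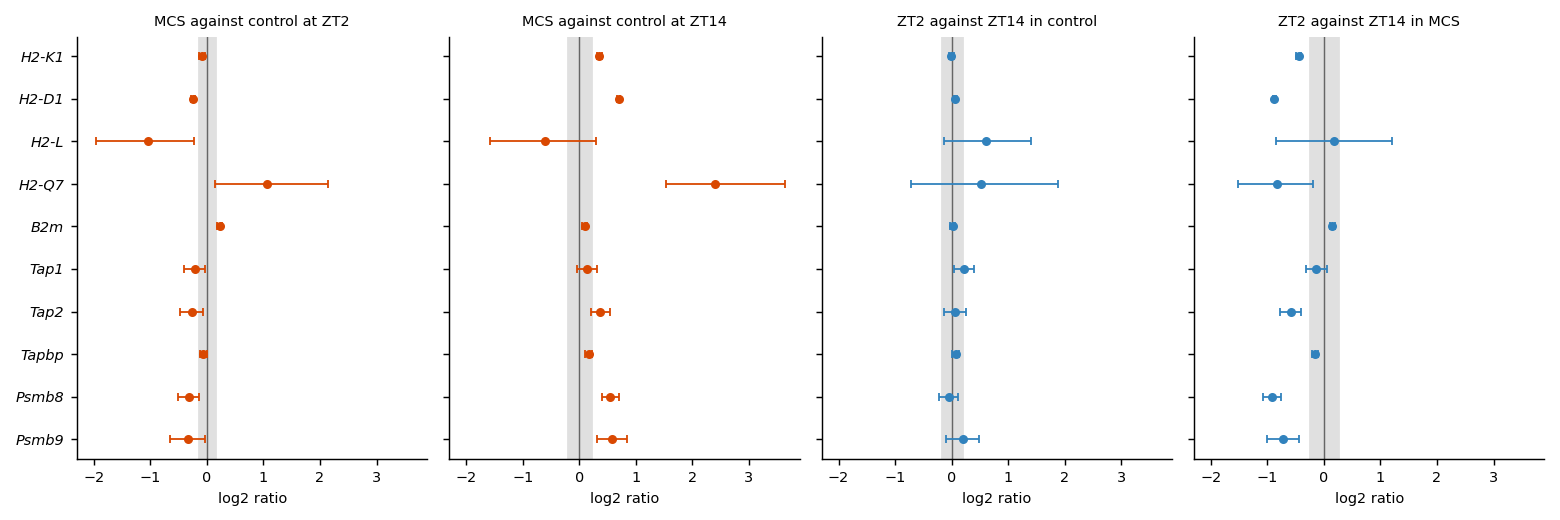
Log2 ratios of the 10 members in the 4 comparisons, as points with 95% exact intervals on reads (counting error only); the gray band spans the quartiles of all genes tested. At ZT14 in MCS over control, 8 members have intervals above 0, and in control ZT2 over ZT14 most points lie near 0.

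Set side by side, the members were lower in MCS than in control at ZT2 and higher at ZT14. At ZT2, 8 of 10 had an interval below 0 and 2 (*H2-Q7* and *B2m*) had one above 0, against 11.0% and 11.5% of all genes. The median ratio was -0.23, against 0.00 over the 12612 genes tested. At ZT14, 8 of 10 had an interval above 0 and none below, against 18.7% and 18.9% of all genes. The median there was 0.37, against 0.00 over 12368 genes. Intervals are narrower for abundant genes, and most members are abundant. Past a log2 ratio of 0.3, 1 member was higher and 3 were lower at ZT2, against 12.6% and 11.9% of all genes. Centered on genes of like transcript length, 2 of the 9 members with a length (*H2-Q7* and *B2m*) were higher and 1 lower at ZT2. Of all genes centered in this way, 13.2% were higher and 11% lower. At ZT14, 6 members were higher and 1 was lower, against 18.6% and 17.2% of all genes. The 6 were *H2-K1*, *H2-D1*, *H2-Q7*, *Tap2*, *Psmb8* and *Psmb9*. Past an absolute log2 ratio of 1 there were 2 members at ZT2 (*H2-Q7* and *H2-L*), against 2.21% of all genes, and 1 at ZT14 (*H2-Q7*), against 3.4%. Both of these genes had at most 61 reads in any library.

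A change of side between the time points was common among the members. *H2-K1*, *H2-D1*, *Tap2*, *Tapbp*, *Psmb8* and *Psmb9*, 6 of 10, were below control at ZT2 and above it at ZT14 with both intervals clear of 0. Of all genes tested, 5.32% did so, and 6.93% of genes with a log2 mean CPM above 3, a class that holds 8 of the members. Intervals narrow with more reads, so these shares are not matched to genes as abundant as *H2-K1* and *Tapbp*. At ZT2 the ratios of both genes lay within the quartiles of all genes (-0.15 to 0.16). The ratio of *Tapbp* at ZT14 did so too (-0.21 to 0.22). MCS ZT14 was the highest library and MCS ZT2 the lowest for 5 members, against 14.9% of all genes. The members are neighbors in a shared pathway and are not independent of each other, and each ratio rests on 1 library against 1.

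In control mice most members differed little between the time points. The median ratio of ZT2 to ZT14 was 0.07, with a range from -0.05 for *Psmb8* to 0.60 for *H2-L*. Only 2 members, *H2-L* and *H2-Q7*, were past 0.3, both higher at ZT2 (17.3% of all genes were), and none was lower by that much (13.5%). No member was past 1 in control, against 3.61% of all genes. *H2-K1* had 698 and 701 CPM at the 2 control time points, a ratio of -0.0044 (-0.06 to 0.05). In MCS mice the median was -0.52, from -0.92 for *Psmb8* and -0.88 for *H2-D1* to 0.17 for *H2-L*. There, 6 members were lower at ZT2 by more than 0.3 (21.4% of all genes were) and none was higher (22.7%). Centered on genes of like transcript length, 6 were again lower and 1 was higher, *B2m*, whose ratio went from 0.14 to 0.39. Of all genes centered in this way, 18% were lower and 24.6% higher. No member was past 1 in MCS, against 5.83% of all genes. The comparisons over time use the same libraries as those of MCS with control, so these values do not add independent evidence.

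The pathway around the members was described with lists of genes. Of 15 other class I heavy chain genes with values, 11 were higher in MCS at ZT14 by more than 0.3 and none was lower, against 18.6% and 17.2% of all genes. At ZT2, 2 were higher and 6 lower, against 12.6% and 11.9%. *H2-Q6*, *H2-T3*, *H2-M2* and *H2-M5* had no row in the values. Their median was 0.52 at ZT14 and -0.25 at ZT2. *H2-T9*, a nonclassical heavy chain gene, stood at 6.47, 8.24, 13.0 and 18.4 CPM. Its ratio was 0.995 at ZT2 and 1.15 at ZT14, so that, as for *H2-Q7*, both MCS libraries stood above both controls. *H2-T23*, which encodes the Qa-1 molecule, had 158, 142, 134 and 208 CPM, with ratios of -0.23 and 0.55. *H2-M3*, which presents formylated peptides, had 13.2, 12.1, 9.98 and 20.25 CPM, with ratios of -0.40 (interval including 0) and 0.74. *H2-Bl* was counted with 6.01, 4.06, 2.67 and 3.99 CPM, ratios of -1.14 and -0.03, and *H2-K2* with the lowest ratio of the list at ZT14, -0.10, had 10.3, 9.23, 12.4 and 8.59 CPM. *H2-T23* was chosen after its values were seen. Summed over all 19 heavy chain genes, which does not depend on how reads were split among these 19, the ratio was -0.22 at ZT2 (-0.25 to -0.20) and 0.59 at ZT14 (0.57 to 0.61).

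Genes of the constitutive proteasome core were likewise below control at ZT2 and above it at ZT14. Of these, 3 are the catalytic subunits that the inducible ones replace, and the other 11 are common to both forms of the core. All 14 subunits of the constitutive core had a ratio above 0 at ZT14, 12 of them by more than 0.3 (18.6% of all genes were), with a median of 0.42. At ZT2 all 14 had a ratio below 0, 4 of them by more than 0.3 (11.9% of all genes were), with a median of -0.26. The intervals of *Psmb5*, *Psma7*, *Psmb2* and *Psmb3* at ZT2, and of *Psma2* at ZT14, included 0. The highest was *Psma5*, a structural subunit of the outer ring, at 31.4, 26.9, 24.4 and 52.3 CPM and a ratio of 0.95 at ZT14 (0.73 to 1.18). *Psma2* was lowest at ZT14 with 0.18 (-0.02 to 0.39). Among 6 further immunoproteasome genes, assembly factors and activators, 3 were higher at ZT14 by more than 0.3 and none lower, against 18.6% and 17.2% of all genes. *Psmb10*, the remaining inducible catalytic subunit, stood at 44.1, 47.3, 40.0 and 71.9 CPM, a ratio of 0.60. *Psme2*, a subunit of the 11S activator, had a ratio of 0.62, and *Psme3* had one of 0.00. *Psme1*, another activator gene of this list, had a ratio of 0.03 (-0.13 to 0.19). *Psmb10* and its counterpart *Psmb7*, at 0.59, had ratios at ZT14 that differed by 0.01. Of 9 genes for peptide loading and trimming, 2 were higher at ZT14 by more than 0.3 and none lower, with a median of 0.14, a share near the 18.6% of all genes that were higher. *Bcap31*, which escorts class I molecules out of the endoplasmic reticulum, was highest of these at 0.41 (0.25 to 0.58).

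Regulators of the pathway went both ways. Of 14, none was higher at ZT14 by more than 0.3 and 2 were lower, with a median of -0.02, against 18.6% and 17.2% of all genes. At ZT2, 2 were higher and none lower, with a median of 0.07, against 12.6% and 11.9% of all genes. These were *Nfya* at 0.37 (0.19 to 0.54) and *Rfxap* at 0.42 (-0.08 to 0.94), named after their values were seen, and both belong to complexes that bind class I promoters. *Nlrc5*, the transactivator of class I genes, stood at 51.3, 35.9, 50.9 and 40.2 CPM, with ratios of -0.01 at ZT2 and 0.16 at ZT14, both intervals including 0. *Irf1* had 59.6, 66.5, 59.05 and 70.04 CPM, with ratios of -0.01 and 0.08. Both of its intervals included 0. The DNA-binding factor *Rfx5* had the lowest ratio at ZT14, -0.53 (-0.74 to -0.31). *Irf8* had -0.41 at ZT14 (-0.53 to -0.29) and 0.19 at ZT2 (0.04 to 0.35). Among those with at least 10 CPM, *Irf9* was highest at 0.21 (0.03 to 0.39). Of 4 interferon receptor genes, 1 (*Ifngr1*) was higher by more than 0.3 at ZT2 (12.6% of all genes were). All 4 had a ratio above 0 there, from 0.09 to 0.37, with a median of 0.29, against 0.00 over all genes. None passed 0.3 at ZT14, where *Ifngr1* had 0.16 and *Ifnar1* -0.16. The ligand genes *Ifng* and *Ifnb1* had no row in the values.

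**Figure D4:**
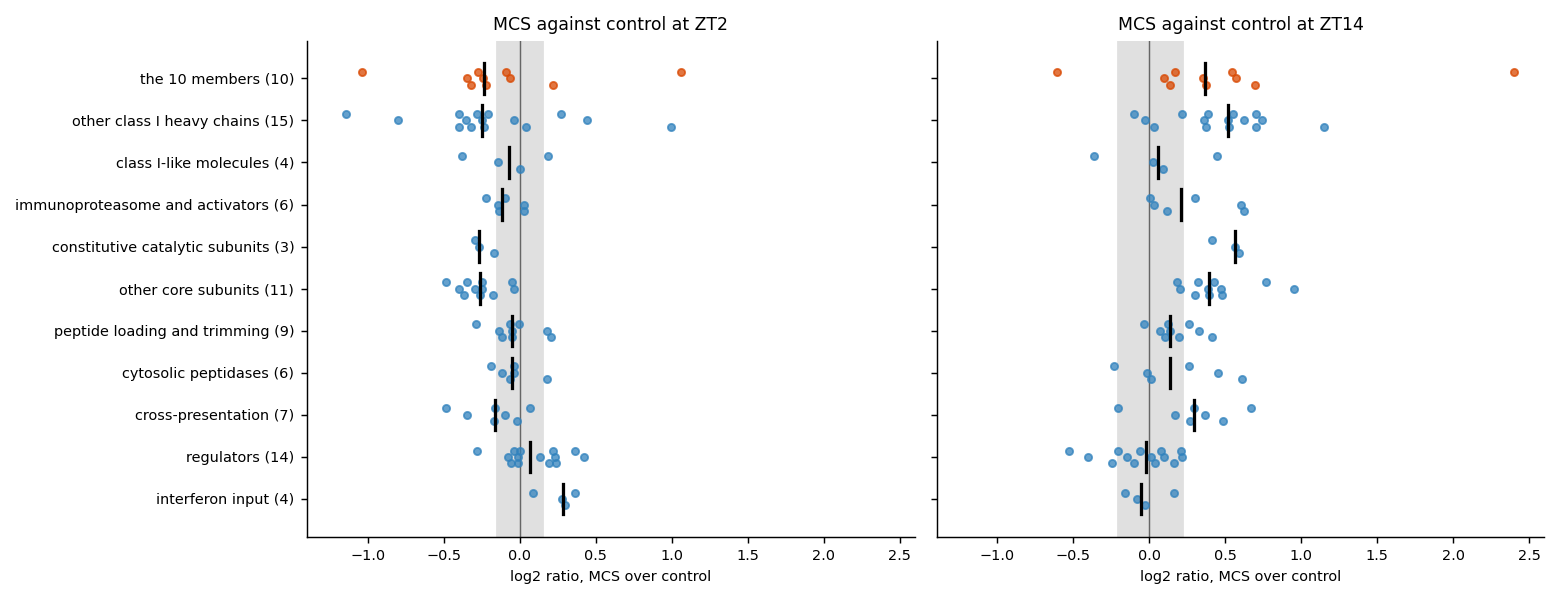
Log2 ratios of MCS over control at ZT2 and ZT14 for the 10 members and 10 lists of genes of the pathway; each point is a gene, black lines are medians, numbers in parentheses count genes, and the gray band spans the quartiles of all genes. Medians at ZT14 are 0.37 for the members, 0.52 for the other heavy chains and -0.02 for the regulators.

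Short transcripts were on the whole higher in MCS ZT14. Among genes with a log2 mean CPM above 3, the median of MCS over control was 0.21 at ZT14 for transcripts under 1 kb and -0.13 for those of 6 kb and over. The corresponding medians at ZT2 were -0.08 and 0.03. Relative to genes of like length, the ratio at ZT14 was 0.65 for *H2-D1*, 0.22 for *H2-K1*, 0.38 for *Tap2*, 0.41 for *Psmb8*, 0.44 for *Psmb9*, 0.12 for *Tapbp* and 0.08 for *Tap1*. In this scale the 6 members that changed sides were again below 0 at ZT2 and above 0 at ZT14. The 14 core proteasome subunits, with a median length of 1.16 kb, kept a median of 0.27 at ZT14 and -0.23 at ZT2. The part of transcript length in the remaining differences was not tested further.

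**Figure D5:**
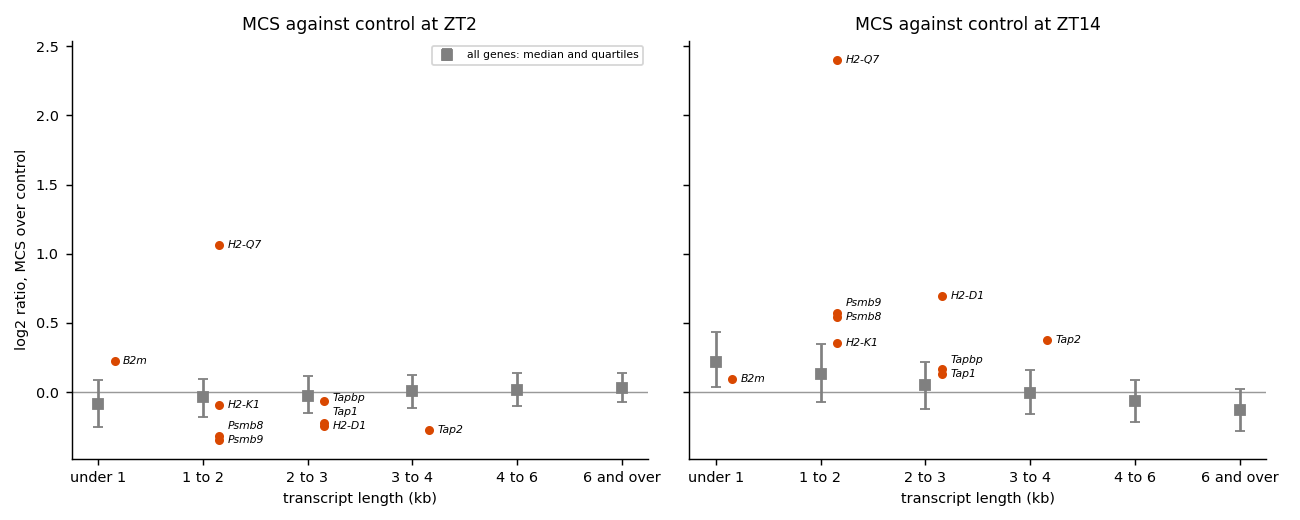
Log2 ratio of MCS over control by transcript length: gray squares and bars are the median and quartiles of all genes with a log2 mean CPM above 3, and orange points are the 9 members with a known transcript. At ZT14 the gray medians decline from 0.21 under 1 kb to -0.13 at 6 kb and over, and H2-D1 lies 0.65 above its class.

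Markers of macrophages were abundant and those of other cells varied between libraries. The 6 macrophage markers summed to 24701 to 27143 CPM and the 4 markers of large peritoneal macrophages to 3538 to 3947 CPM. The sums for 4 B cell markers were 996, 1218, 954 and 863 CPM, lowest in MCS ZT14, where most members were highest. For 4 mast cell markers they were 1293, 838, 1621 and 644 CPM. Sums for 4 T cell markers ranged from 13.4 to 24.5 CPM, for 4 natural killer cell markers from 13.7 to 32.7 CPM, for 4 dendritic cell markers from 29.1 to 53.8 CPM and for 4 mesothelial markers from 3.73 to 12.6 CPM. The 3 neutrophil markers with values summed to 15.01, 14.7, 67.3 and 4.81 CPM, and the 4 red blood cell markers with values to 2.54, 1.10, 23.8 and 72.4 CPM. Of the eosinophil markers, *Siglecf* alone had values, from 0.659 to 14.1 CPM. *Ly6g*, *Prg2*, *Epx* and *Hbb-bs* had no row. No marker with a row was at 0 in every library. The part of these cells in the values of the members was not tested, and in bulk RNA fewer cells of a type and less RNA per cell cannot be told apart.

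A count test with additive terms for time and MCS, which takes the effect of MCS to be the same at ZT2 and ZT14, called none of the members. For MCS, edgeR's quasi-likelihood test with Benjamini-Hochberg adjustment called 24 of 12404 genes (0.193%). *H2-Q7* had an unadjusted p of 0.000186 and an adjusted p of 0.0794, and *H2-L* had 0.0483 and 1. For time it called 295 genes (2.38%), and the lowest adjusted p of a member was 0.229, for *Psmb8*, whose unadjusted p was 0.0124. Members below 0.05 without adjustment numbered 2 for MCS and 1 for time, against 2.45% and 10.4% of all genes. With 1 residual degree of freedom, and with opposite signs at the 2 time points for 6 members, this test does not address the pattern of those 6.

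By likeness of profile over the 4 libraries, 8120 genes with at least 10 CPM in every library were compared with the mean profile of the members. The nearest were *Tomm40*, at a distance of 0.02 on the log2 scale, followed by *Acy1*, *Sdhc*, *Atp5j* and *Alox5*. *Tomm40* stood at 23.7, 20.8, 21.5 and 28.7 CPM. When *H2-L* and *H2-Q7* were left out of the mean, the nearest were *Fermt3*, *Mrpl12*, *March8*, *Npc2* and *Tmem219*. In all, 660 of the 8120 genes lay within 0.2 of the mean profile of the 10 members, so many genes lay near this average. *H2-K1* was the member nearest to this mean, at 0.13, followed by *Tap2* at 0.18, and *H2-Q7* was the farthest, at 1.60. The remaining members also lay farther than 0.2 from it, so the average was not the profile of most members.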

How the data were processed

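Trimming by the authors used Trimmomatic 0.38, and gene counts came from RSEM 1.3.0 on Bowtie 2 alignments. The deposited values are CPM, which the authors normalized with edgeR. Build mm10 is named in the submitters' processing notes. The annotation version and the filter are not given in the sources used here. The libraries were rRNA-depleted and directional.

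All deposited values were whole multiples of 1 read within 0.05 read (100%), from which reads were recovered. RSEM estimates need not be whole, so any rounding by the authors is included. Log2 ratios used a pseudocount of 0.1 CPM and genes with a log2 mean above 0. Intervals are 95% exact conditional binomial for ratios and exact Poisson for levels. Ratios and the count test were checked on simulated data. Lengths, positions, shared stretches and coding sequences came from GENCODE M21, promoters from RefSeq. *H2-L* had no entry and was not analysed there.

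The members, lists and tests were chosen with earlier results of these data known. Named genes were all members, list genes past a log2 ratio of 1, and the highest and lowest of each list at ZT14 among genes with at least 10 CPM on average. Added to these were *Psmb5*, *Psmb6*, *Tapbpl*, *Nlrc5*, *Irf1* and the H2-Q rows next to *H2-Q7*. *Psmb10*, *Psme1*, *Psma7*, *Psmb2*, *Psmb3*, *Irf8*, *Nfya*, *Rfxap* and *H2-T23* were named after their values were seen. A gene that the rule names is not reported here. Alternatives were other pseudocounts, minimum levels, thresholds, library scalings and a summed heavy chain. Ratios centered on genes of like length and the count test were added after the data were seen. Python 3.11.15, numpy 2.4.6, pandas 2.3.3, scipy 1.17.1, R 4.3.3 and edgeR 4.0.16 were used.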

Additional observations from a re-analysis of the deposited data

Results flagged for a closer look

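Members that lay on opposite sides of their control at the 2 time points were singled out, since MCS and control were compared within each time point with counting intervals clear of 0. These were *H2-K1* (log2 ratio of MCS to control -0.091 at ZT2 and 0.36 at ZT14), *H2-D1* (-0.24 and 0.70), *Tap2* (-0.27 and 0.37), *Tapbp* (-0.0632 and 0.17), *Psmb8* (-0.32 and 0.55) and *Psmb9* (-0.34 and 0.57). With 1 library for each group the difference between the time points was not tested. Of all genes tested, 5.32% showed this change of side. At ZT2 the ratios of *H2-K1* and *Tapbp* lay within the quartiles of all genes, as did that of *Tapbp* at ZT14.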

How the results depend on the processing

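No paired analysis was possible because the labels give no replicate numbers and each group has 1 library. The count test has time as a term and so compares MCS with control within time points. Of 116 recomputed counts and medians, 102 stayed close to the reported value. A pseudocount of 1 CPM left 0 members past a log2 ratio of 1 at ZT2. With a minimum log2 mean of 3, which drops *H2-L* and *H2-Q7*, 0 members were past 1 at ZT2 and 0 at ZT14, 2 were past 0.3 at ZT2, and 0 were past 0.3 between time points in control. Of all genes at that minimum, 0.283%, 0.884%, 14.6% and 21.5% were past these limits, in the same order. With the heavy chains summed, which leaves 7 features, these counts were again 0, 0, 2 and 0, and 4 were past 0.3 at ZT14. The 2 at ZT2 were lower and the 4 at ZT14 higher, against 11.9% and 18.6% of all genes. At ZT2, 8 members passed a threshold of 0.2 (2 higher and 6 lower, against 20.2% and 19.5% of all genes) and 2 passed 0.5 (1 and 1, against 5.58% and 4.86%). Centering on genes of like transcript length left 9 members with a length, of which 1 was past 1 at ZT2 and 1 past 0.3 between time points in control, and it reversed *B2m* at ZT14 to -0.12. The 1 member past 0.3 in control was higher at ZT2, as were 18.4% of all genes. Of 332 recomputed ratios of single members, 323 stayed close to the reported value and 8 moved in size with the same sign. Rescaling to a median ratio of 1 and leaving out the ribosomal RNA precursor *Rn45s* moved no count or median by more than the limits set. Rescaling by TMM factors says nothing here, since the deposited CPM already contain them. Counts of 10 to 61 reads limit *H2-L* and *H2-Q7*, whose intervals span more than a log2 unit.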

Other observations

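Genes that feed class I presentation from outside the core pathway were examined in 3 further lists. Of 7 genes used in cross-presentation, 3 were higher in MCS than in control at ZT14 by more than 0.3 on the log2 scale and none was lower, against 18.6% and 17.2% of all genes. At ZT2, 2 of them were lower by that much, against 11.9% of all genes. *Sec61b*, a subunit of the translocon through which engulfed proteins may leave their compartment, stood at 38.0, 34.9, 27.15 and 55.6 CPM in control ZT2, control ZT14, MCS ZT2 and MCS ZT14, with ratios of -0.48 at ZT2 and 0.67 at ZT14. *Lnpep*, an endosomal peptidase, was lowest of the list at ZT14, at -0.20. Of 6 cytosolic peptidases, 2 were higher at ZT14, led by *Lap3* at 0.61 (interval 0.31 to 0.93), an aminopeptidase inducible by interferon. *Npepps*, another aminopeptidase, had the lowest ratio, -0.23 (-0.40 to -0.06). Of 4 class I-like genes, 1 was higher and 1 lower at ZT14 by more than 0.3, and the small counts for peptidases and class I-like genes lie near the shares of all genes. Among those with at least 10 CPM, *Hfe*, a regulator of iron uptake, had a ratio of 0.09, and *Fcgrt*, the neonatal Fc receptor, 0.02. Both pair with *B2m*. All of these values rest on 1 library for each group.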
